A study of Lithobates clamitans with 20 samples.

Results

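Gut transcriptomes of green frog tadpoles held 6487 genes with no count of 0 in any library and 1990 genes with a count of 0 in at least 1. Among them, 68 genes were higher at 32°C than at 22°C in tadpoles with a D animal code while the tadpoles with a C code had about the same mean at both temperatures. The members were chosen by their own measured values. A member had no count of 0 in any of the 20 libraries, a mean below 1000 CPM (read counts scaled to a common library size), a lowest value in the D32 group above the highest value in the D22 group, a D32 mean at least 1 log2 unit above the D22 mean, and C32 and C22 means less than 0.3 log2 units apart. All values are log2 CPM after TMM scaling, a method of edgeR that corrects for a few abundant genes taking up the counts of a library, with a prior count of 2 added before the logarithm. The first criterion left 6487 genes, the limit on mean CPM 6364, the absence of overlap between D32 and D22 491, and the difference of at least 1 log2 unit 264. Of these 264 genes, 68 met the limit on the C tadpoles, 190 were also higher in C32 than in C22 by 0.3 or more, and 6 were lower in C32 by 0.3 or more.

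The study compared tadpoles of *Lithobates clamitans*, offspring of a single pair of frogs, that were raised in water with unsterilized pond water (colonized) or with autoclaved pond water (depleted, with a disrupted and less diverse microbiome) and were then moved to 32°C for 24 h (warm) or left at 22°C (cool). The gut of each of 20 tadpoles gave 1 library, with 5 tadpoles in each of 4 groups: D32, D22, C32 and C22. Here the letter of the animal code was read as depleted (D) or colonized (C) and the digits after it as the temperature. The treatment fields of the sample records give the same treatment for D32 (warm depleted) and C22 (cool colonized), but for the other 10 tadpoles they differ from the code: D22 is warm colonized and C32 is cool depleted in those fields. By the fields, therefore, the same 68 genes are genes that were higher in depleted than in colonized tadpoles at 32°C, with means that lay close together at 22°C. Over all genes, edgeR's quasi-likelihood test called 1074 genes (12.7%) between D32 and D22 and 50 (0.59%) between C32 and C22, which are the temperature comparisons by code. It called 0 between D32 and C32 and 0 between D22 and C22, which are the temperature comparisons by field, with 623 and 995 genes at an unadjusted p under 0.05. Per the paper, temperature changed more genes in depleted than in colonized tadpoles, and few genes differed by colonization alone. The counts by code have that order, and those by field, at 0 and 0, do not. These counts were not used to assign any tadpole, and the groups are called by their codes below.

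In ectotherms such as amphibians, a rise in water temperature raises the temperature of every tissue, and cells respond with changes in transcription that include the induction of chaperones, which keep proteins folded. The gut epithelium is also the tissue in closest contact with gut microbes, whose products change the expression of host genes for metabolism, barrier function and immunity. The deposited table lists genes by locus identifiers of the American bullfrog genome and does not pair them with names, so what the 68 genes encode, and whether chaperones are among them, was not analysed here, nor were markers of gut cell types. Per the paper, no host gene for heat shock proteins, which clear misfolded proteins, was called as changed by temperature. In whole gut, fewer cells of a type and less RNA per cell cannot be told apart.

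Between 11102195 and 22922461 reads per library were counted on genes. The TMM factor ran from 0.878 to 1.29 in D32, from 0.682 to 1.03 in D22, from 0.973 to 1.25 in C32 and from 0.697 to 1.25 in C22. The 10 most abundant genes of a library took 23.4% to 26.4% of its counts in D32, 26.2% to 32.0% in D22, 20.4% to 25.5% in C32 and 18.03% to 30.7% in C22. The factors of D22 were thus mostly low, with D2209 at 1.03 as the exception, and C2206 was the C tadpole with the lowest factor. With total counts in place of TMM factors, the D32 minus D22 difference of all genes shifted by a median of 0.53 log2 units and the C32 minus C22 difference by 0.061, and 295 genes met the criteria, among them 58 of the 68.

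The members were of ordinary abundance for this gut. Their mean over the 20 tadpoles ran from 1.53 to 645.6 CPM with a median of 14.4, against a median of 14.3 CPM over the 6487 genes with no count of 0. A mean under 10 CPM was found for 28 members and a mean of at least 100 CPM for 4, and 64 of the 68 had at least 10 counts in every library. The D32 minus D22 difference that chose them had a median of 1.24 log2 units and ran from 1.002 to 2.62. edgeR's quasi-likelihood test called 63 of the 68 members higher in D32 than in D22, beside 6.39% of all genes, and all 68 had a lowest D32 value above the highest D22 value, beside 6.32% of all genes. Both counts follow from the rule, so nothing is read from them.

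**Figure D1:**
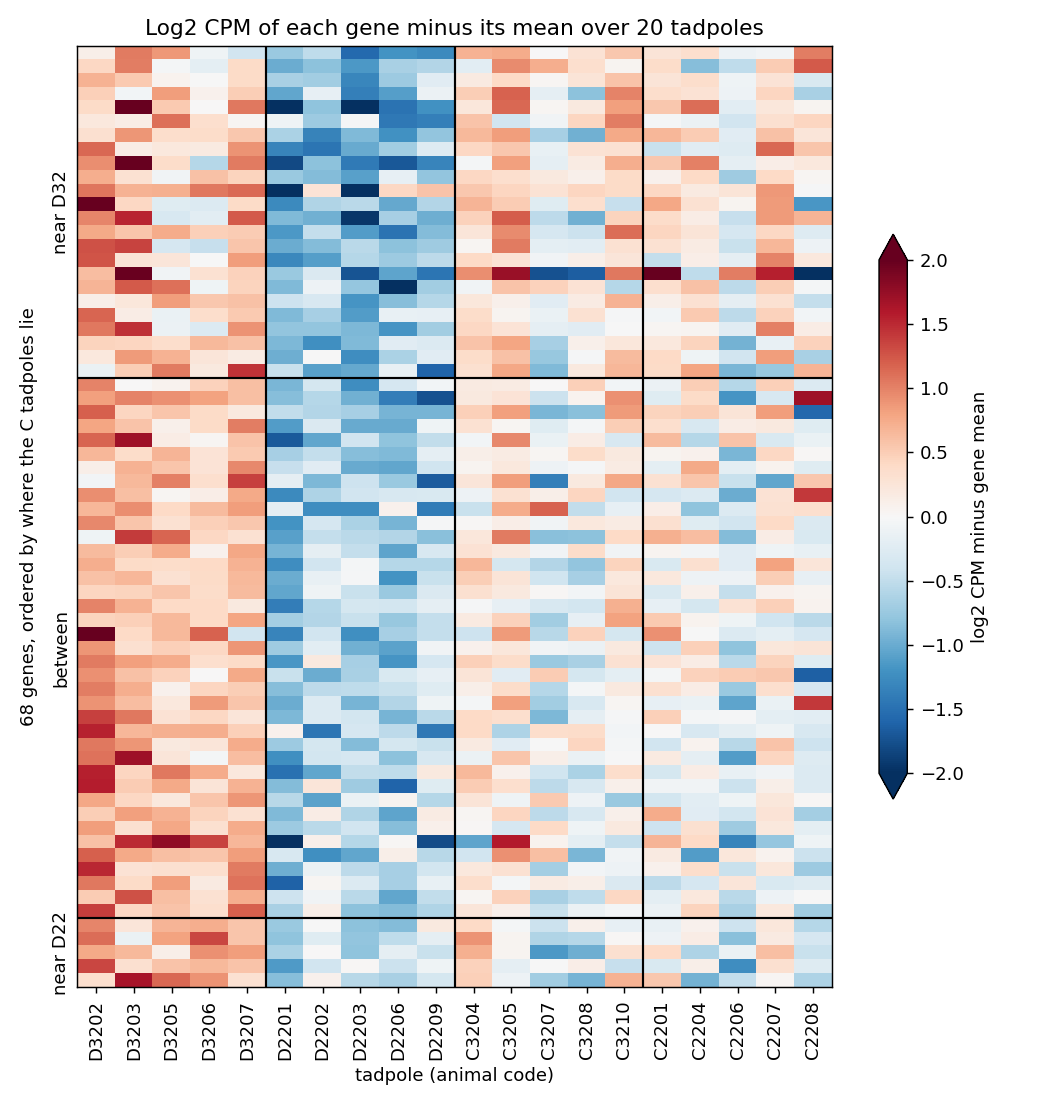
Each row is one of the 68 genes and each column a tadpole, in the order D32, D22, C32 and C22, and the colour gives log2 CPM minus the mean of the gene over the 20 tadpoles. D32 is above D22 in every row by the rule, while the C tadpoles are mixed, with 24 genes whose C mean lay near D32 at the top, 39 between and 5 near D22 at the bottom.

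The rule sets how far apart the C means may be, but not where between the D groups they lie. With C32 and C22 nearly equal, a difference of at least 1 log2 unit between D32 and D22 has to be made up of D32 standing above C32, of D22 standing below C22, or of both. The D32 mean was above the C32 mean in 66 members, beside 48.3% of all genes, and the D22 mean was below the C22 mean in all 68, beside 51.3% of all genes. Genes with a high D32 and a low D22 were chosen, so the rule favours both directions and nothing is read from these counts. D22 minus C22 had a median of −0.65 log2 units over the members, with a range of −2.02 to −0.13. D32 minus C32 had a median of 0.53, with a range of −0.15 to 1.19. By these medians the side of the cool tadpoles by code was slightly larger. Both sides entered the rule and were not tested against each other. Over all genes the medians were −0.013 and −0.011. In 44 of the 68 members, D22 was further below C22 than D32 was above C32, beside 52.4% of all genes.

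Whether single members were called on either side depended on the tool. Between D32 and C32, edgeR's quasi-likelihood test called 0 of the 68 members and 0% of all genes, with a smallest adjusted p of 0.641. The unadjusted p was under 0.05 for 623 of all genes, and 23 members were higher in D32 at that level, beside 3.81% of all genes. DESeq2 called 3 members, beside 1.62% of all genes with an adjusted p. The likelihood ratio test of edgeR and limma voom called 0, beside 0.0944% and 0% of all genes. Between D22 and C22 the quasi-likelihood test also called 0 members and 0% of all genes, with a smallest adjusted p of 0.0783. Here 995 genes had an unadjusted p under 0.05, and 36 members were lower in D22 at that level, beside 6.87% of all genes. DESeq2 called 11 members, beside 4.24% of all genes with an adjusted p, the likelihood ratio test 7, beside 1.5%, and limma voom 3, beside 0.201%. By rank alone, the lowest D32 value was above the highest C32 value in 6 members, beside 0.708% of all genes, and the highest D22 value was below the lowest C22 value in 11, beside 1.3% of all genes. All 4 groups entered the rule, so these counts describe the members and are not independent of how they were chosen.

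The word "only" in a description such as raised by heat only in depleted tadpoles concerns the interaction of temperature and colonization, that is, whether the D32 minus D22 difference exceeded the C32 minus C22 difference. The quasi-likelihood test of this interaction in a fit of all 20 tadpoles called 0 of the 68 members and 0% of all genes. The adjusted p of the members ran from 0.212 to 0.646 in that edgeR fit. The unadjusted p was under 0.05 for 1097 of all genes, and 62 members had a positive interaction at that level, beside 7.14% of all genes, a count that the rule favours because both differences were used to choose the genes. DESeq2 called 27 members, beside 5.18% of all genes with an adjusted p, the likelihood ratio test 2, beside 0.283%, and limma voom 0, beside 0%. A member is therefore a gene whose C means lay close together, and not a gene shown to respond in D tadpoles alone.

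The closeness of the C means was no more exact than the spread between tadpoles allows. C32 minus C22 had a median of 0.13 log2 units over the members, against 0.0095 over all genes, and 50 of the 68 were higher in C32. The standard error of that difference, from 5 tadpoles in each group, had a median of 0.29, just under the limit of 0.3, and it was above 0.3 in 32 members. The difference was within 2 standard errors of 0 in 67 members. In 11 members, however, 2 standard errors above the observed difference reached 1 log2 unit, the rise that the rule asked for in D tadpoles. The ranges of the 5 C32 and the 5 C22 tadpoles overlapped in all 68 members. The limit of 0.3 favours the overlap and a difference within 2 standard errors of 0, so nothing is read from either. Shares over all genes were not counted for these or for the 50 members higher in C32.

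**Figure D2:**
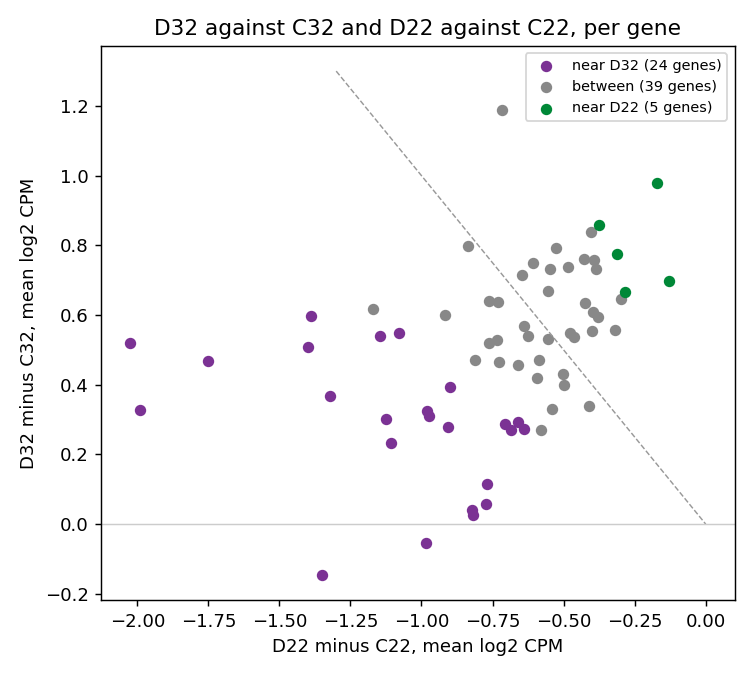
Each point is a gene, placed by D22 minus C22 (horizontal axis, mean log2 CPM) and D32 minus C32 (vertical axis, mean log2 CPM), and coloured by class, and the dashed line marks sides of equal size. All 68 points lie to the left of 0, 66 lie above 0, and 44 lie under the dashed line, where D22 was further below C22 than D32 was above C32.

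Members were sorted by the position of the mean of the 10 C tadpoles on the way between the D22 mean, set to 0, and the D32 mean, set to 1. The median position was 0.56. A position above 0.667 was found in 24 members (near D32), a position under 0.333 in 5 (near D22), and 39 lay between. The 190 genes that were higher both in D32 over D22 and in C32 over C22 had a median position of 0.57, with a median D22 minus C22 of −0.36 and a median D32 minus C32 of 0.18 log2 units, and both of those sides are smaller there because part of the D difference is shared by the C groups. In the 24 members near D32, the median of D22 minus C22 was −0.98 and that of D32 minus C32 was 0.30. In the 39 members between, the medians were −0.55 and 0.59, and in the 5 members near D22 they were −0.28 and 0.78. The classes were cut from these same means, so the medians describe the classes and were not tested. A class near D22, with D32 raised above 3 similar groups, held 5 genes here, but 0 with total counts and between 3 (without C2206, C3208 or D3202) and 11 (without D2201) with a tadpole left out. It held 8 without C2204 and 10 without C3205 or D2206.

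AB205_0218490 had the largest D32 minus D22 difference of all members, 2.62 log2 units, and lay near D32. Its CPM was 39.2, 30.5, 30.8, 38.9 and 41.1 in D3202, D3203, D3205, D3206 and D3207. In D2201, D2202, D2203, D2206 and D2209 it was 0.881, 22.5, 0.341, 24.9 and 27.7. D2201 and D2203 had 13 and 4 counts, whereas the other D22 tadpoles had values like those of the 10 C tadpoles, which lay between 18.4 and 34.3 CPM. The size of the difference therefore came from 2 of the 5 D22 tadpoles, and it ran from 1.69 without D2203 to 3.24 without D2209. AB205_0218490 was among the 5 members that edgeR's quasi-likelihood test did not call between D32 and D22 (adjusted p = 0.420), with a D22 standard deviation of 2.91 log2 units, the highest of any member.

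AB205_0183870, with the next largest difference near D32 (2.46 log2 units), was low in every D22 tadpole. It had 26.2, 86.4, 28.9, 20.1 and 42.0 CPM in D3202, D3203, D3205, D3206 and D3207, against 4.204, 11.4, 3.49, 7.11 and 8.57 CPM in D2201, D2202, D2203, D2206 and D2209. The C32 tadpoles had 29.5 ± 10.2 CPM and the C22 tadpoles 26.9 ± 10.4 (SD, n = 5 each). Here D22 was separate from the other 3 groups, as the lowest C tadpole, C2206, had 17.3 CPM. AB205_0132080 had the smallest unadjusted interaction p of all members and a similar shape in its means. They were 27.9 ± 18.5 CPM in D32 against 5.27 ± 1.53 in D22, and 17.6 ± 5.56 in C32 against 18.1 ± 6.003 in C22 (SD, n = 5 each). Its D32 tadpoles were spread, from 9.21 CPM in D3206 to 58.0 in D3203. D3206 was below the lowest C tadpole, C2206 at 12.1 CPM, and near the highest D22 tadpole, D2202 at 7.73. The adjusted p of AB205_0132080 for the interaction was 0.212 by edgeR's quasi-likelihood test. Between D22 and C22 it was 0.0783, the smallest adjusted p there, which another member shared.

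Of the members between, AB205_0019760 had the largest difference, 2.11 log2 units. It had 7.46, 14.1, 17.2, 12.8 and 7.94 CPM in D3202, D3203, D3205, D3206 and D3207, against 0.814, 5.34, 3.32, 5.03 and 1.36 CPM in D2201, D2202, D2203, D2206 and D2209. The C tadpoles spanned both groups. In C3204, C3205, C3207, C3208 and C3210 the values were 2.34, 15.0, 5.21, 4.32 and 3.53 CPM, and the C22 tadpoles had 4.79 ± 2.51 CPM (SD, n = 5). C3205 thus stood among the D32 tadpoles, and the rest of C32 among the D22 tadpoles.

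AB205_0120480, also between, had the widest gap of all members, 1.17 log2 units from the lowest D32 to the highest D22 tadpole. Its CPM was 34.8, 39.5, 37.3, 34.6 and 30.1 in D3202, D3203, D3205, D3206 and D3207, and 10.9, 13.3, 10.1, 7.52 and 5.84 in D2201, D2202, D2203, D2206 and D2209. The D32 values were close together and far from those of D22. The C22 tadpoles were spread most, from 8.64 CPM in C2206 to 64.3 in C2208, which was higher than any D32 tadpole, and the C32 tadpoles had 23.9 ± 8.34 CPM (SD, n = 5).

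AB205_0166250 and AB205_0082940 had the largest differences of the 5 members near D22. AB205_0166250 was an abundant member, with a mean of 246.7 CPM over all tadpoles. It had 272.4, 673.5, 480.5, 402.5 and 265.6 CPM in D3202, D3203, D3205, D3206 and D3207, against 119.4, 228.7, 146.2, 137.9 and 168.9 CPM in D2201, D2202, D2203, D2206 and D2209. The C32 mean was 219.2 ± 103.2 CPM and the C22 mean 188.3 ± 79.8 (SD, n = 5 each). Single C tadpoles still reached the range of D32, with 301.3 CPM in C3204, 348.5 in C3210 and 311.6 in C2201. AB205_0082940 had 94.6 ± 33.3 CPM in D32 against 38.4 ± 7.78 in D22, and 56.3 ± 26.4 in C32 against 48.4 ± 12.8 in C22 (SD, n = 5 each), with 100.2 CPM in C3204 as the C tadpole closest to the D32 mean. The lowest D32 tadpole, D3203 at 49.1 CPM, was close to the highest D22 tadpole, D2209 at 47.3. C2201, C2204, C2207, C3204, C3205 and C3210 lay above D3203, and C2206, C2208, C3207 and C3208 lay below it.

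**Figure D3:**
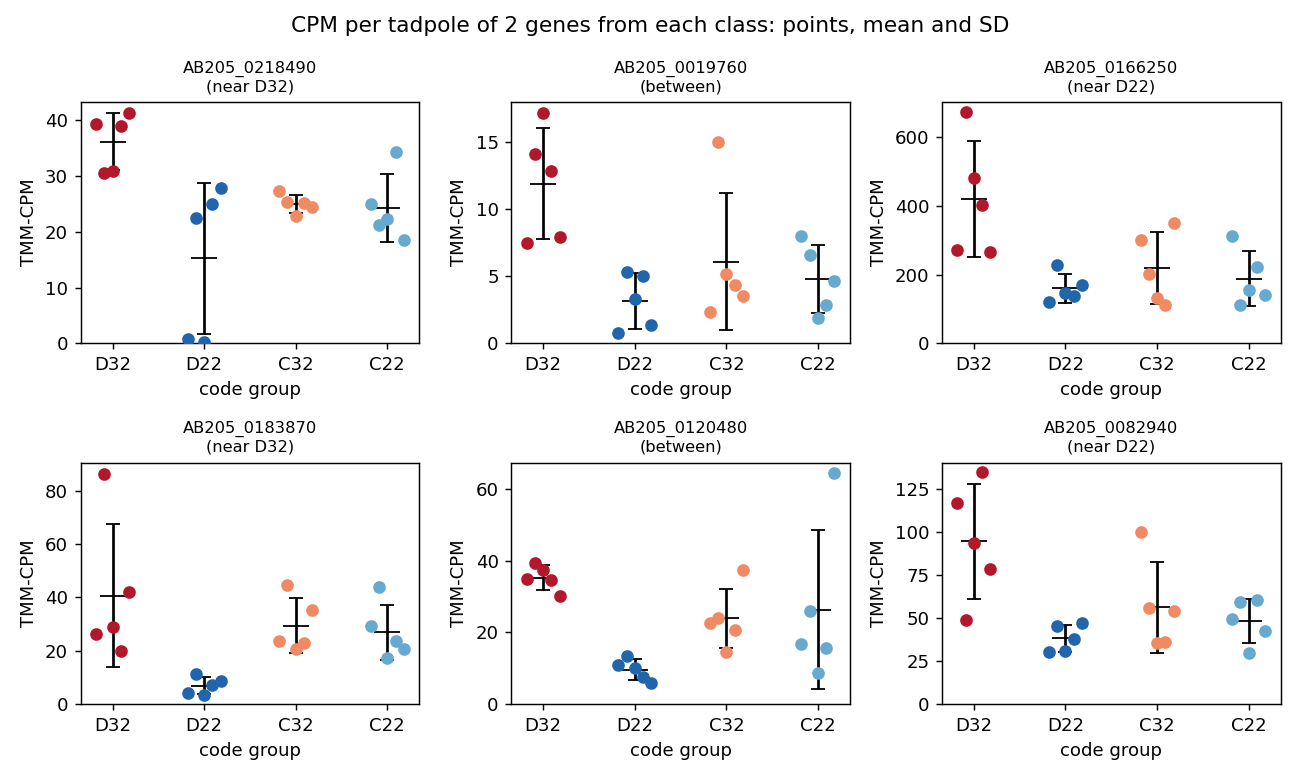
Each panel gives the TMM-scaled CPM of a gene in every tadpole, with D32, D22, C32 and C22 from left to right, points for tadpoles and a bar for the mean and SD of 5. The left column holds genes near D32, where AB205_0218490 had 2 D22 tadpoles under 1 CPM beside 3 above 22, the middle column genes between, and the right column genes near D22.

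Equal C means did not always stand for similar C tadpoles. AB205_0182240, chosen after its values were seen because it had the largest spread in both C groups, had C32 and C22 means 0.27 log2 units apart, but 412.5, 716.1, 64.3, 69.3 and 447.3 CPM in C3204, C3205, C3207, C3208 and C3210, and 858.6, 152.0, 441.8, 636.5 and 40.8 CPM in C2201, C2204, C2206, C2207 and C2208. Within each C group 3 tadpoles were above the D32 mean and at least 1 was below the D22 mean of this gene, which were 391.8 ± 263.0 and 110.8 ± 44.7 CPM (SD, n = 5 each). Over the members, the median SD of log2 CPM within a group was 0.38 in D32, 0.43 in D22, 0.47 in C32 and 0.46 in C22. Over the 6487 genes with no count of 0 the medians were 0.44, 0.43, 0.38 and 0.46 in the same order. The rule asks for D32 and D22 values that do not overlap and sets no limit on the spread of C tadpoles.

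Seen tadpole by tadpole, the C animals did not share a level. For each C tadpole, the members were counted that stood at or above the lowest D32 tadpole, at or below the highest D22 tadpole, or between these. C3204 and C3205 had 42 and 44 of the 68 members in the D32 range, and C2207 had 41, with 7, 13 and 11 members in the D22 range. C3207, C2206 and C2208 were the reverse, with 35, 41 and 34 members in the D22 range and 19, 13 and 20 in the D32 range. C3208 had 29 in the D22 range and 24 in the D32 range, and C3210, C2201 and C2204 had 16, 19 and 23 in the D22 range and 37, 34 and 30 in the D32 range. Tadpoles of both kinds were found in C32 and in C22, so the intermediate C means were in part means over unlike libraries. These counts were made with TMM scaling only.

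**Figure D4:**
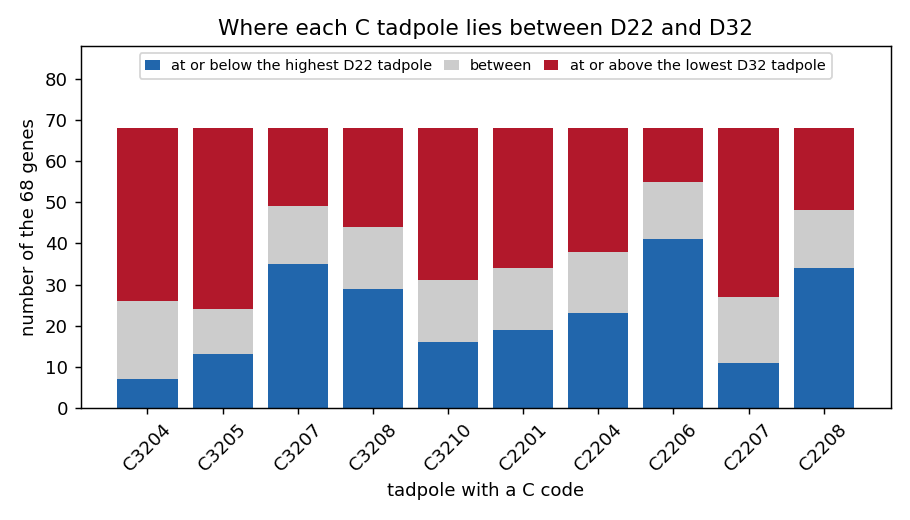
For each of the 10 C tadpoles, C32 on the left and C22 on the right, the bar divides the 68 genes into those at or below the highest D22 tadpole, those between, and those at or above the lowest D32 tadpole. The number in the D32 range ran from 19 to 44 in C32 and from 13 to 41 in C22.

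The same was seen in the module level, the mean over the 68 members of log2 CPM minus the mean of the gene over all tadpoles. It was 0.61 ± 0.19 in D32, −0.72 ± 0.20 in D22, 0.10 ± 0.28 in C32 and 0.013 ± 0.25 in C22 (SD, n = 5 each). D3202 had the highest level, 0.84, and D3206 the lowest of D32, 0.36. In D22 the level ran from −0.97 in D2201 to −0.50 in D2202. The C tadpoles ran from −0.36 in C2206 to 0.41 in C3205, a level above that of D3206, and none was as low as D2202. With total counts in place of TMM factors the order changed: C2206, at −0.87, was below D2209, at −0.50, so C22 and D22 overlapped, D3207 was highest at 0.99 while D3202 had 0.65, and no C tadpole, at 0.60 or less, reached the lowest D32 tadpole, at 0.62. The difference between D32 and D22 is fixed by the rule and is given as a description.

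Among the C tadpoles, the module level moved with the TMM factor of the library. The 6 C tadpoles with a level above 0, of 0.097 to 0.41, had factors of 1.14 to 1.25, and the 4 with a level below 0, of −0.36 to −0.11, had factors of 0.697 to 1.05. D22 tadpoles also had low factors, with 4 of the 5 between 0.682 and 0.805, while D32 had 4 of 5 between 1.11 and 1.29. The exceptions were D3202, with a factor of 0.878 and the highest level, 0.84, and D2209, with a factor of 1.03 and a level of −0.54. The part that library composition has in the module was not tested.

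**Figure D5:**
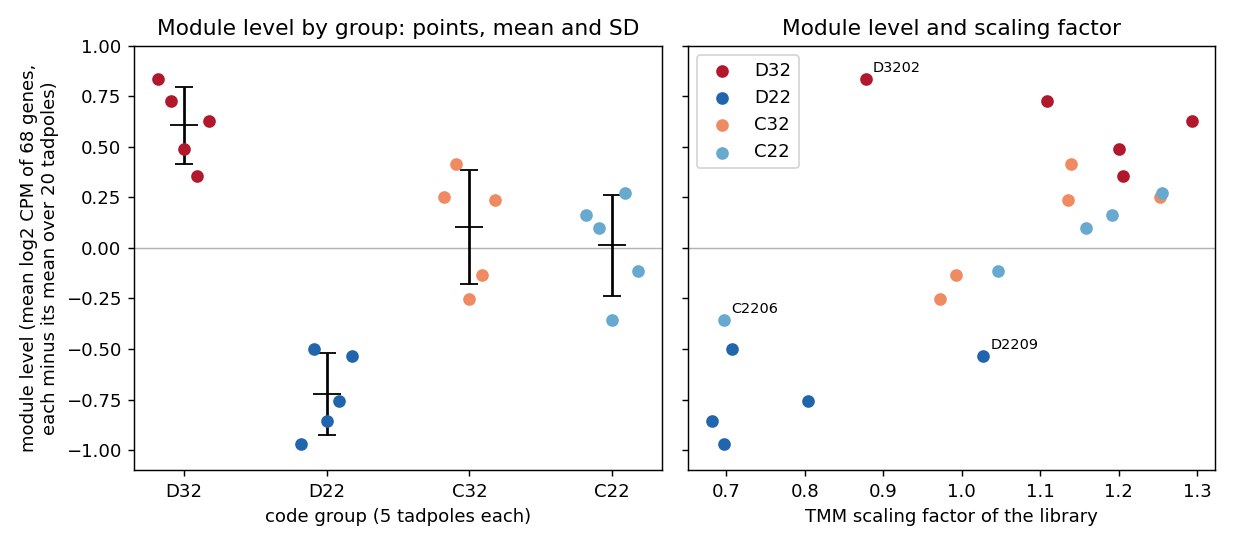
The left panel gives the module level of each tadpole by code group with the mean and SD of 5, and the right panel the same level against the TMM factor of the library. D32 lies at 0.36 to 0.84 and D22 at −0.97 to −0.50, and the C tadpoles lie between and on the edge of D32. The C tadpoles with levels above 0 have the higher factors. Within D32 the course is not seen, as D3202 has the lowest factor, 0.878, and the highest level. Within D22, D2209 has the highest factor, 1.03, and a level of −0.54, near the highest of that group, −0.50 in D2202 with a factor of 0.708.

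Members also varied together among the C tadpoles, which the rule did not ask for. With the mean of each C group removed, the median Pearson correlation of log2 CPM over the 10 C tadpoles was 0.29 for pairs of members, and 75.2% of the pairs were positive. Over all pairs of the 6364 genes with no count of 0 and a mean below 1000 CPM the median was −0.00019, with 50.0% positive. Without C2206, the C tadpole with the lowest factor, the median for the members was 0.22, with 68.5% positive. These correlations are a description over 10 libraries that share scaling factors and composition. The members were chosen for a shared direction between D32 and D22, while the genes beside them differ in either direction. The 190 genes that were also higher in C32 were not compared, so whether the members differ from them in this was not tested.

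Among the 68 members, 3 pairs had identifiers that follow each other in the numbering of the bullfrog genes, in steps of 10: AB205_0009250 and AB205_0009260, AB205_0136100 and AB205_0136110, and AB205_0192510 and AB205_0192520. Over all genes there were 3662 such pairs. The D32 minus D22 differences of the paired members were 1.39 and 1.49, 1.23 and 1.34, and 1.44 and 1.47 log2 units. Over the 10 C tadpoles, log2 CPM of the genes of a pair had Pearson correlations of 0.81, 0.93 and 0.94. Such pairs outside the module were not compared, so whether these correlations are particular to the members was not tested. Where these genes lie, and whether reads were shared between them, was not analysed here, and the pairs were picked after the members were known.

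The edges of the module were not sharp. The member nearest to the minimum difference, AB205_0051810, had a D32 minus D22 difference of 1.002 log2 units, and AB205_0083830, just outside, 0.989. For the limit on C tadpoles, AB205_0200930 was just inside with C32 minus C22 at 0.292 and AB205_0169800 just outside at 0.30002. AB205_0085490 was a member with a gap of 0.0011 log2 units between the lowest D32 and the highest D22 tadpole, and AB205_0217650 was not, with an overlap of 0.0128. A minimum of 0.75 in place of 1 log2 unit gave 126 genes and a minimum of 1.5 gave 12. The membership also depended on single tadpoles, since without D2209 the rule gave 126 genes, 66 of them among the 68, and with medians in place of means 65 genes, of which 45 were among the 68.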

How the data were processed

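Gut RNA of 20 tadpoles was sequenced (TruSeq libraries, NovaSeq, paired-end). Per the authors, Trim Galore served for trimming, BWA for alignment to an American bullfrog genome assembly and StringTie for counting (versions not given in the sources used here). The deposited values are raw read counts, from which the authors had dropped rare transcripts. In the table, every gene has at least 2 CPM in at least 3 libraries. All 20 columns were used. Gene names were not used here, and pathway and marker lists were not analysed.

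Groups follow the animal codes in the sample titles. The members and the classes were chosen with earlier results of these data known. Counts were tested with edgeR 4.0.16 (TMM, glmQLFit and glmQLFTest, R 4.3.3) over every gene of the table, and p-values were adjusted by Benjamini–Hochberg with a threshold of 0.05. Pairs of groups were fitted on their 10 tadpoles and the interaction on all 20. Functions were tested on simulated data. The p-values measure the spread between tadpoles of a single pair of parents. Per the paper, the warm tadpoles were moved to another environmental chamber, so temperature and chamber cannot be told apart.

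Alternatives were DESeq2 1.42.0, limma 3.58.1 (voom with quality weights), the likelihood ratio test of edgeR, RLE and total-count scaling, a filter of 10 counts in 10 libraries, an adjusted p under 0.01, all 4 groups in one fit, the tadpole number as a block, other limits of the rule, and each tadpole left out. Genes named are the 2 with the largest D32 minus D22 difference in each class, the smallest interaction p, and those nearest to each limit. Exceptions, named after their values were seen, are AB205_0182240 and the pairs with successive identifiers.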

Additional observations from a re-analysis of the deposited data

Results flagged for a closer look

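Among the named genes and the module level, 56 groups of 5 tadpoles were examined for a tadpole far from the others. Of these groups, 4 held such a tadpole. Chance gives about 1 in 20 groups if the groups are independent and the values normally distributed. The genes were chosen by their values and examined as CPM, so that rate need not hold and nothing is read from the count. AB205_0019760 had 15.0 CPM in C3205, against 2.34 to 5.21 in the other C32 tadpoles. AB205_0085490 had 2.62 CPM in C2201, against 1.03 to 1.32 in the other C22 tadpoles. The other two concern genes just outside the module: AB205_0083830 had 451.7 CPM in D3203, against 167.2 to 202.2 in the other D32 tadpoles, and AB205_0217650 had 1251 CPM in D3202, against 168.7 to 381.5 in the other D32 tadpoles. Their causes were not tested.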

How the results depend on the processing

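The number of members was 68, with RLE factors 61, and between 46 and 72 with other prior counts, a limit of 0.2 on the C tadpoles, no limit on mean CPM, zero counts allowed, or medians. It was 295 with total counts, 126 with a minimum difference of 0.75, 12 with a minimum of 1.5, and 115 with a limit of 0.5 on the C tadpoles. With a tadpole left out it ran from 57 (without D2201) to 126 (without D2209).

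Members called for the interaction moved from 0 to 27 with DESeq2 (435 of all genes) and to 2 with the likelihood ratio test (24 of all genes). With the tadpole number as a replicate block there were 0. Per the paper, tadpoles were kept individually, and each belonged to a single group, so the numbers name animals and do not pair them. Of 12 same-numbered pairs, 2 had deviations correlated over 0.1, with r from −0.36 to 0.14, and nothing is read from this. Between D32 and C32, DESeq2 called 3 (133 of all genes). Between D22 and C22, limma voom called 3 (17 of all genes), the likelihood ratio test 7 (127) and DESeq2 11 (350). In these 3 comparisons leaving out a tadpole gave no call among the members, so their count was 0 throughout. Over all genes, such fits called up to 4 genes for the interaction (without D2209). They called up to 1 between D32 and C32 (as without C3204) and up to 5 between D22 and C22 (without C2206). Members called between D32 and D22 fell to 4 at an adjusted p under 0.01 and to between 27 (without D2203) and 60 (without D2209) with a tadpole left out; without D2201 they were 29, without D2206 40, without D3202 39 and without D3207 28. Over all genes the count was 1074, with 53 at an adjusted p under 0.01, 431 without D2203, 1290 without D2209, 427 without D2201, 590 without D2206, 618 without D3202 and 401 without D3207. The cause was not tested.

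Of the classes, members near D22 were 0 with total counts and 3 to 11 with a tadpole left out, members between 35 to 47 and members near D32 17 to 28. No D32 minus D22 difference of a named gene changed sign in 299 recomputed values, and 6 moved by more than the spread between tadpoles, all with total counts. The named genes met the rule or lay just outside one of its limits, which favours an unchanged sign. Nothing is therefore read from the absence of a change. Also, 4 members had fewer than 10 counts in a library, which limits their precision.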
